A study of Mus musculus with 50 samples.

Results

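The Fos and Jun family holds 7 genes, Fos, Fosb, Fosl1, Fosl2, Jun, Junb and Jund, of the 21911 protein-coding genes of the GENCODE M21 annotation, and its members were taken by name. For each member, every peak whose summit lay within 50 kb of the gene start was counted in each of 39 peak lists, 27 made with an antibody to GR, the glucocorticoid receptor, and 12 with an antibody to NFIA, a DNA-binding protein of the nuclear factor I group. The proteins of this family pair through leucine zippers into the transcription factor AP-1. Fos proteins need a Jun partner, whereas Jun proteins can also pair with each other. Fos, Fosb, Fosl2, Jun and Junb are classic immediate early genes, switched on within minutes of a stimulus such as neuronal activity or growth factors, and GR is known both to bind beside AP-1 and to repress AP-1 targets.

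CUT&RUN, which releases DNA fragments around an antibody-bound protein, was applied by the authors to nuclei of mouse primary visual cortex (V1) at postnatal day 14 and to 3T3 cells, a mouse fibroblast line. Astrocyte nuclei were sorted by GFP delivered with a virus whose GfaABC1D promoter is active in astrocytes. They came from normally reared (NR, 3 libraries) and dark-reared (DR, 3 libraries) mice, and from animals, also normally reared, with floxed GR alleles in which the virus carried Cre (GR-KO, 2 libraries) or the inactive ΔCre (GR-con, 2 libraries). ΔCre was also the construct in the NR and DR astrocytes profiled for GR, whose mice were wild-type. Oligodendrocytes, inhibitory neurons and excitatory neurons of NR mice (3 GR and 3 NFIA libraries each) carried a floxed Sun1-GFP reporter. It was opened by Olig2-Cre, Slc32a1-Cre and Slc17a7-Cre, respectively. NFIA was also profiled in astrocytes labelled NR (3 libraries). The paper's methods name NFIA in astrocytes only together with floxed-GR mice, so the mouse line may differ from that of the NR libraries for GR. Each V1 library was made from 175000 nuclei and pooled tissue of several mice. The 3T3 cells, kept in charcoal-stripped serum, received ethanol vehicle or 200 nM dexamethasone (DEX, a synthetic glucocorticoid) for 2 h, with 2 libraries for each treatment at 50000 and at 250000 nuclei.

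List length differed widely between libraries, and the number of peaks near any gene moved with it. In the GR lists of NR astrocytes, replicates 1 and 3 held 14012 and 21539 peaks and replicate 2 held 2262. DR lists held 28 to 293 peaks. The GR-con lists were longer (6792 and 7761) than the GR-KO lists (413 and 1846). Peak lists cannot show the loss of GR itself, so the Cre label was not checked here. The paper examined the deletion by GR staining of GFP-labelled cells at later ages, and reports weaker GR CUT&RUN signal with Cre. NFIA lists of astrocytes held 22373 to 27143 peaks and those of the other cells 1 to 4173. Read depth was not given in the lists. In NR astrocytes all 7 astrocyte marker genes had a site, a site being a peak within 50 kb in at least 2 libraries of a group, for GR and for NFIA. In inhibitory neurons 4 of 7 of their markers had a GR site and 5 of 7 an NFIA site, against 6.36% and 5.08% of all genes. In excitatory neurons it was 1 of 6 and 0 of 6 of their markers, against 9.69% and 2.09%. In oligodendrocytes 0 of 7 of their markers had either site, against 0.78% and 1.4%. Of 6 fibroblast markers, 3 had a GR site in 3T3 cells with DEX at 250000 nuclei (50%, against 11.3% of all genes). In NR astrocytes 4 had one (66.7%, against 51.4%). Of the oligodendrocyte markers, 4 of 7 had a GR site and 5 of 7 an NFIA site in astrocytes, near the 51.4% and 66% of all genes. Of the excitatory neuron markers, 2 of 6 had a GR site in astrocytes (33.3%, against 51.4%) and 3 of 6 an NFIA site (50%, against 66%). By number alone, the oligodendrocyte, excitatory neuron and fibroblast lists had more GR sites in astrocytes than in the cells they mark. The fibroblast share stood further above that of all genes in 3T3 cells.

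In all, 333 peaks lay within 50 kb of a member, in 77 separate regions. Of these regions, 44 were closer to the start of a member than to that of any other protein-coding gene. No other protein-coding gene starts within 50 kb of Fos, Fosl2 or Jun. Fosb has 6 such neighbours, Fosl1 and Junb have 9 each and Jund has 5, against a median of 2 over all genes, so distal peaks around these 4 members may belong to other genes. Fosl1 is the extreme case: 0 of its 13 regions had Fosl1 as the nearest gene and no library had a peak within 500 bp of its start.

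**Figure D1:**
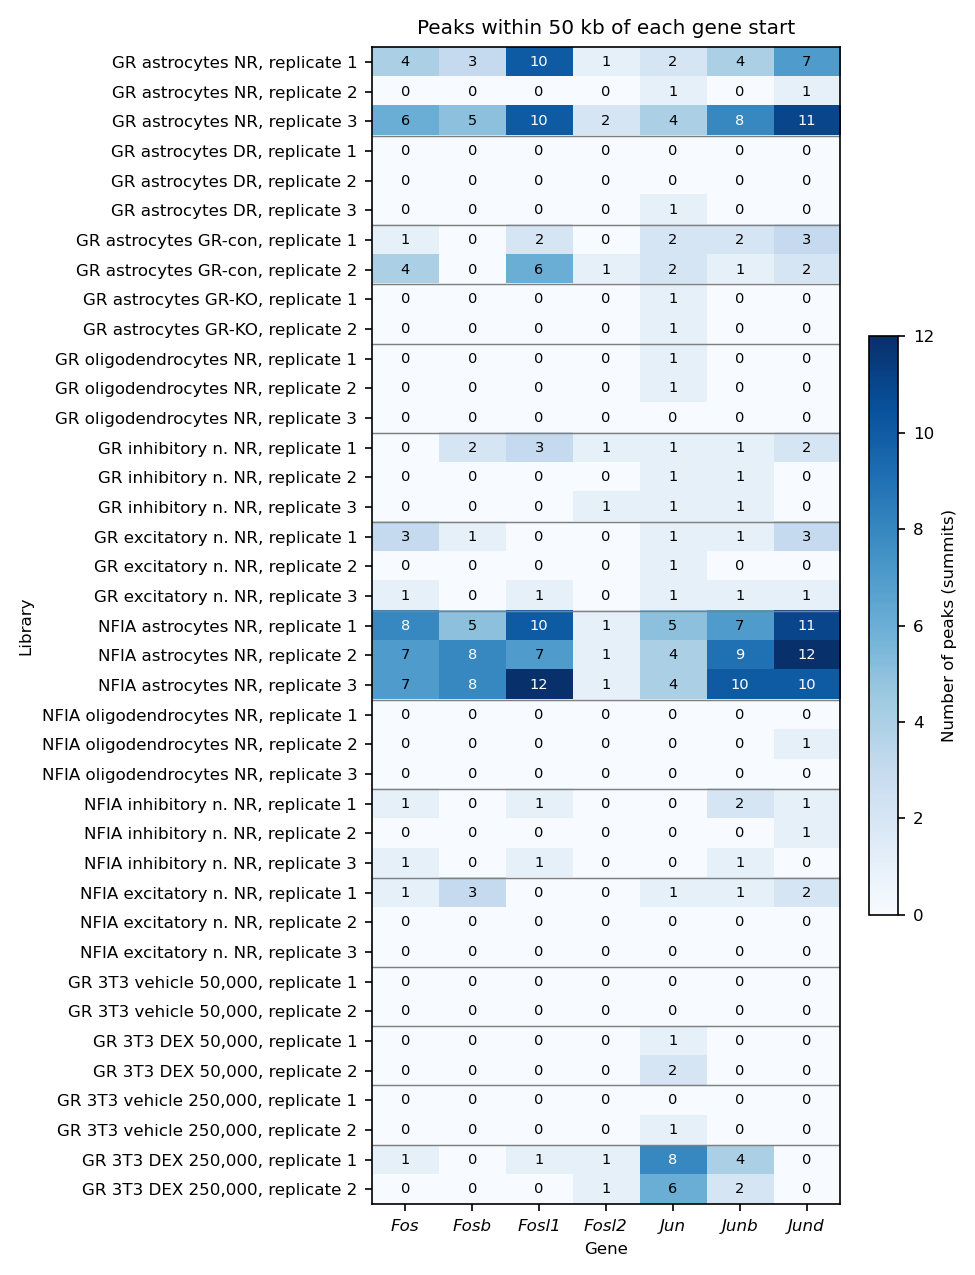
Number of peaks whose summit lies within 50 kb of the start of each Fos and Jun family gene (columns) in each of the 39 libraries (rows, grouped by protein, cell type and condition). The NFIA astrocyte rows reach 12 peaks, NR astrocytes replicates 1 and 3 reach 10 and 11, and Jun is the column most often above 0.

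The sequences under the peaks nearest to the starts are shown first, since known control elements of some of these genes lie in them. They were read from the mm10 reference at the median summit of each region, on the strand of the gene, and stop before the start of transcription. Capitals mark matches, on either strand, to the AP-1 site TGACTCA, the Jun proximal site TGACATCA, the cAMP response element TGACGTCA, the core of the glucocorticoid response element ACANNNTGT, the full NFI palindrome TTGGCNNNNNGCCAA and the CArG box bound by serum response factor.
Jun start, chr4:95052223-95052375, minus strand: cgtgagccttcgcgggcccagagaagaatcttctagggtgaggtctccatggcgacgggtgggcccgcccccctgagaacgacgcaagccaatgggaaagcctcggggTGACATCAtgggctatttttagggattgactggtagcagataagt
Fos 1725 bp upstream, chr12:85472065-85472265, plus strand: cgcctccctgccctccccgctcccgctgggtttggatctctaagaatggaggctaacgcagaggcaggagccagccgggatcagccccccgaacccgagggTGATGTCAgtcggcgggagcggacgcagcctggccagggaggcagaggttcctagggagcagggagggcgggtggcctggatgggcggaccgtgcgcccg
Fos 342 bp upstream, chr12:85473448-85473648, plus strand: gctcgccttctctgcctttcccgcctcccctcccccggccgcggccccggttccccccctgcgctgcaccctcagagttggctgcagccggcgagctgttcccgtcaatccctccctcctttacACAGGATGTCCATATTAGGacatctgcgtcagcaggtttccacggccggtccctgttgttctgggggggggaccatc
Fos start, chr12:85473765-85473889, plus strand: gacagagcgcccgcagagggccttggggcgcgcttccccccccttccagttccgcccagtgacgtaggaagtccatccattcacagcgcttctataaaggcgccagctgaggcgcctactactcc
Fosb 330 bp upstream, chr7:19310281-19310481, minus strand: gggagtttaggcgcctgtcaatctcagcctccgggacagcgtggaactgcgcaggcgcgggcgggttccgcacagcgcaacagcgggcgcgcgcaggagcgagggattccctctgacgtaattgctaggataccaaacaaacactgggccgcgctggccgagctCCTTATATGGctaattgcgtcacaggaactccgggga
Fosl2 start, chr5:32135658-32135800, plus strand: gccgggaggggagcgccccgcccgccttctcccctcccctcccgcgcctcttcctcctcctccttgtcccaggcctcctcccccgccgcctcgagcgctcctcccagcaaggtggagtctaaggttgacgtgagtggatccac
Junb start, chr8:84978719-84978855, minus strand: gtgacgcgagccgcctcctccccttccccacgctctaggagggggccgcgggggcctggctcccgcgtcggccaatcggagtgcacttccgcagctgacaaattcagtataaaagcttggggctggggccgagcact
The Jun window holds 1 Jun proximal site, the element through which Jun and ATF proteins act on the Jun gene itself. The Fos window 1725 bp upstream holds the same letters on the opposite strand. The Fos window 342 bp upstream holds 1 CArG box, the core of the serum response element of Fos, directly preceded by letters that match the GRE core. These letters also cover the Ets-type sequence beside the serum response element. The Fosb window holds 1 CArG box as well. In 201 bp windows of all 12458 GR sites of NR astrocytes, the Jun proximal site was present in 1.12%, a CArG box in 0.883% and the GRE core in 4.83%. Over all 23495 NFIA sites of astrocytes the shares were 1.04%, 1.01% and 4.53%. The Fos window 342 bp upstream and the Fosb window had a GR peak in 1 NR library each and were NFIA sites only. Of 47 member regions called for NFIA in at least 2 astrocyte libraries, 2, 5 and 2 held them in that order. Of 28 called for GR in at least 2 NR libraries, 2, 2 and 1 did. The windows at the Fos, Fosl2 and Junb starts hold none of these motifs in the part printed. Nor does the window at the Jund start, which is not printed.

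Jun was the member with the most widespread GR peak. A peak at its start, where the annotation also places the noncoding antisense gene Junos (chr4:95052128-95052822 over all libraries), was called in 16 of 19 GR libraries of V1 cells. Only 2 of 21911 protein-coding genes, Jun among them, had a peak within 500 bp of the start in as many of these libraries. Its summits lay 34 to 105 bp upstream of the start in these libraries, except for a second peak of GR-con replicate 2 at 312 bp. The peak was called in 3 of 3 NR and 1 of 3 DR libraries of astrocytes, in 2 of 2 GR-con and 2 of 2 GR-KO libraries, in 2 of 3 oligodendrocyte libraries, and in 3 of 3 libraries each of inhibitory and excitatory neurons. The Jun start was thus called in both groups of astrocyte libraries with floxed GR, those with Cre included. Whether GR itself was bound there was not tested, and no IgG list was available.

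The fold over background at the Jun start, which the peak caller gives for each list and which is comparable only within a list, was 4.01, 6.98 and 6.10 in NR astrocytes replicates 1, 2 and 3, and 5.36 in the DR library with the peak. Replicates 1 and 2 of GR-con stood at 5.21 and 3.84, those of GR-KO at 3.72 and 6.97. Ranked within its own list, the Jun fold of the GR-con libraries stood at the 37.8th and 18.7th percentile (the 54.1st for the second peak of replicate 2) and that of the GR-KO libraries at the 6.20th and 70.3rd. The lists differ so much in length that neither folds nor ranks allow a comparison of these groups. In inhibitory neurons the percentiles were 85.2, 47.4 and 43.1, and in excitatory neurons 91.8, 30.3 and 26.4. The peak was wide, 519 and 695 bp, in NR replicates 1 and 3 and 103 to 176 bp in NR replicate 2 and in the GR libraries of GR-KO, oligodendrocyte, inhibitory and excitatory neuron nuclei. The wide peaks came from the longer lists, and the part of list length in the width was not tested.

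**Figure D2:**
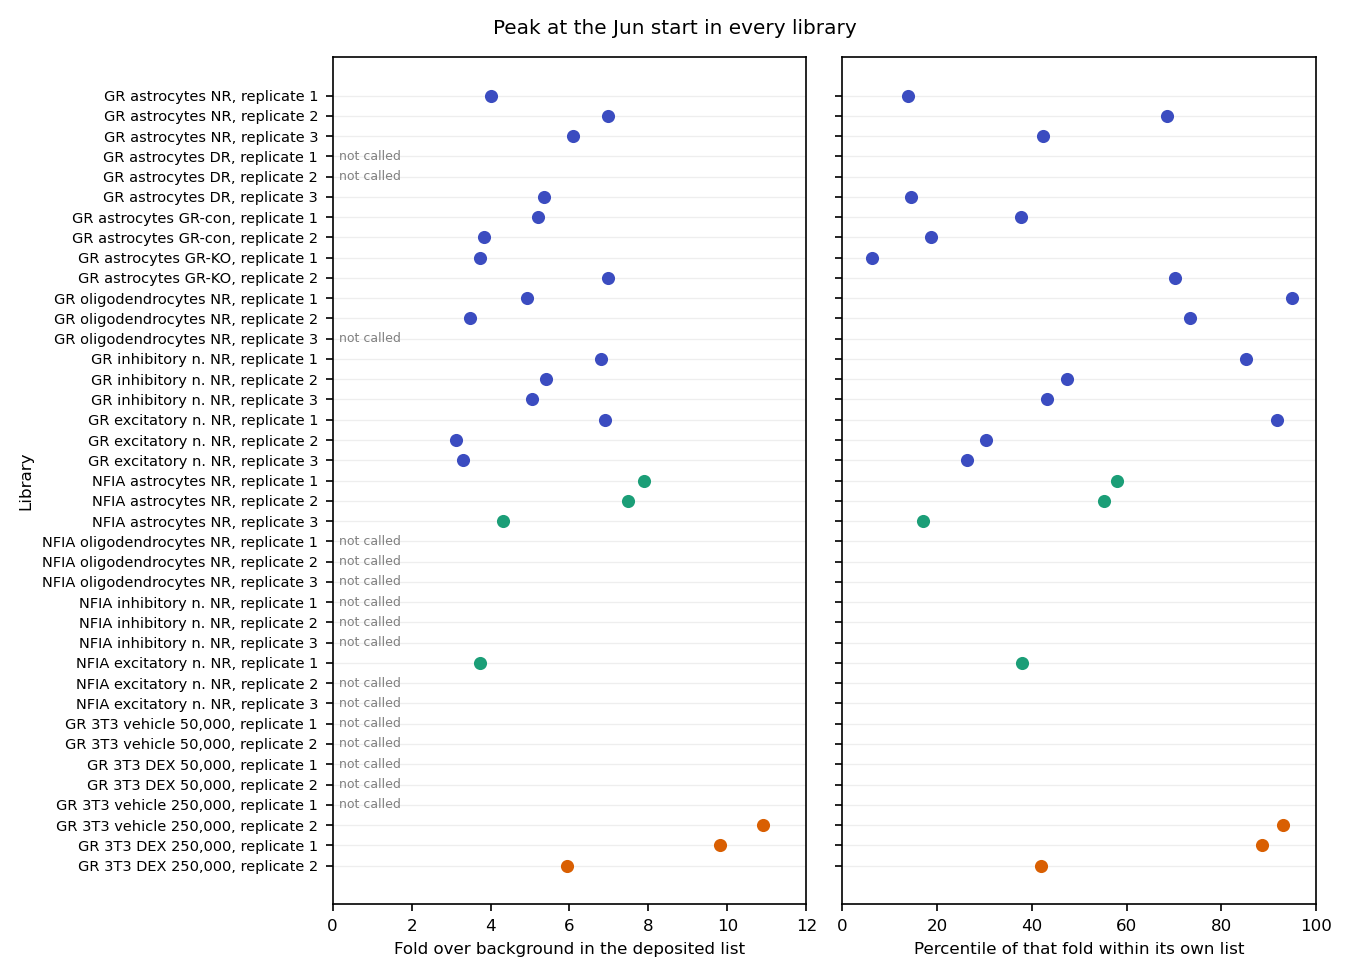
Fold over background of the peak at the Jun start (left) and the percentile of that fold among all peaks of the same list (right), for each library (rows; blue GR in V1 cells, green NFIA, orange GR in 3T3 cells). The peak was called in 23 of 39 libraries, both GR-KO libraries (3.72 and 6.97) included. Values are comparable only within a list.

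NFIA peaks at the Jun start were called in 3 of 3 astrocyte libraries, with folds of 7.90, 7.49 and 4.31, and in 1 of the 9 other NFIA libraries, excitatory neurons replicate 1, with 3.73. Astrocytes had further regions around Jun. A region inside the single exon of Jun, 2143 bp past the start, had NFIA folds of 24.6, 18.9 and 23.0, at the 97.4th, 95th and 98.5th percentile of the 3 lists, and a GR peak in NR replicate 3 at 9.40. A region 1131 bp upstream was called in all 3 NFIA libraries, in NR replicates 1 and 3 and in GR-con replicate 1. The region 1470 bp past the start was called in 3 NFIA libraries and in NR replicate 3. None of these 3 regions was called in DR, in GR-KO or in the GR or NFIA lists of other cells.

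In 3T3 cells, peaks around Jun lay far upstream as well as at the start. With DEX at 250000 nuclei, 8 and 6 peaks were called within 50 kb of Jun, and at 50000 nuclei 1 and 2 were called. Vehicle libraries had 0 and 0 at 50000 nuclei and 0 and 1 at 250000 nuclei. The single vehicle peak, in replicate 2 at 250000 nuclei, sat at the start with a fold of 10.9. Jun was the only member with more peaks in every DEX than in every vehicle library at both numbers of nuclei, as were 1.47% of all genes. The exact permutation test within numbers of nuclei gave p = 0.0556, the smallest value this design allows, and an adjusted p of 1 over all genes. With only the peaks of q at most 0.001, 0 members met this condition (1.17% of genes). Vehicle lists were also shorter (189 to 1035 peaks, against 720 to 5010 with DEX). Per 1000 peaks of the library, Jun stood at 1.39 and 1.44 with DEX and at 0 and 0 with vehicle at 50000 nuclei. At 250000 nuclei the values were 1.60 and 1.29 with DEX and 0 and 0.966 with vehicle. The part of list length in this difference was not tested.

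The DEX peaks upstream of Jun fell in 7 regions between 29557 and 48596 bp from the start, within Junos, 6 of them without a peak in any V1 list. The regions at 42722 and 48596 bp were each called in both DEX libraries at 250000 nuclei and in DEX replicate 2 at 50000 nuclei. Their folds at 250000 nuclei were 7.91 and 8.57 for the first and 8.82 and 8.41 for the second, at the 74.3rd to 82.6th percentile of the lists. The exception, 30617 bp upstream, was also called for NFIA in astrocytes replicate 1. Sequences of these DEX regions, chosen after their values were seen, are printed because 2 of them hold the AP-1 site.
Jun 29557 bp upstream, chr4:95081679-95081879, minus strand: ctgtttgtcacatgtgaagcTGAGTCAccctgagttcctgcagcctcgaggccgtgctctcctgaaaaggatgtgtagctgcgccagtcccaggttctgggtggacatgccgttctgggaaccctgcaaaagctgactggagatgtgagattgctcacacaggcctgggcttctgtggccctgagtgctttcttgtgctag
Jun 42722 bp upstream, chr4:95094844-95095044, minus strand: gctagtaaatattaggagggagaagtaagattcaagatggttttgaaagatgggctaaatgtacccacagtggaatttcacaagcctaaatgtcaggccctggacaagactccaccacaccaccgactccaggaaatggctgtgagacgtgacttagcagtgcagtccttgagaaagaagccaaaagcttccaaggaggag
Jun 48596 bp upstream, chr4:95100718-95100918, minus strand: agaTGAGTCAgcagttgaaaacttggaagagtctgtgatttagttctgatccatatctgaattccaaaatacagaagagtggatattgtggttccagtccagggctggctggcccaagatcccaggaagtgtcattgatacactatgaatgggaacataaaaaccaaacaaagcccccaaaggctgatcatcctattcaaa
The windows at 29557 and 48596 bp each hold 1 AP-1 site, printed on the strand that reads TGAGTCA, and the window at 42722 bp holds none of the motifs searched. Of the 8 regions near members called in both DEX libraries at 250000 nuclei, 3 held an AP-1 site, those at 29557 and 48596 bp from Jun and 1 region 11982 bp from Junb. Over all 2885 such sites of the genome the share was 38.4%, against 2.84% of GR sites and 3.05% of NFIA sites in NR astrocytes. The GRE core was present in 19.4% of the 3T3 sites and 4.83% of the NR GR sites, and the single NFI element TTGGCA in 20.6% and 20.5%. Near members, 3 of 28 regions called for GR in at least 2 NR libraries held this element (10.7%). For NFIA in at least 2 astrocyte libraries, 5 of 47 member regions did (10.6%), against 24.7% of all NFIA sites. The 3T3 lists had passed a looser q threshold (highest q 0.0498) than the V1 lists (0.00999).

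**Figure D3:**
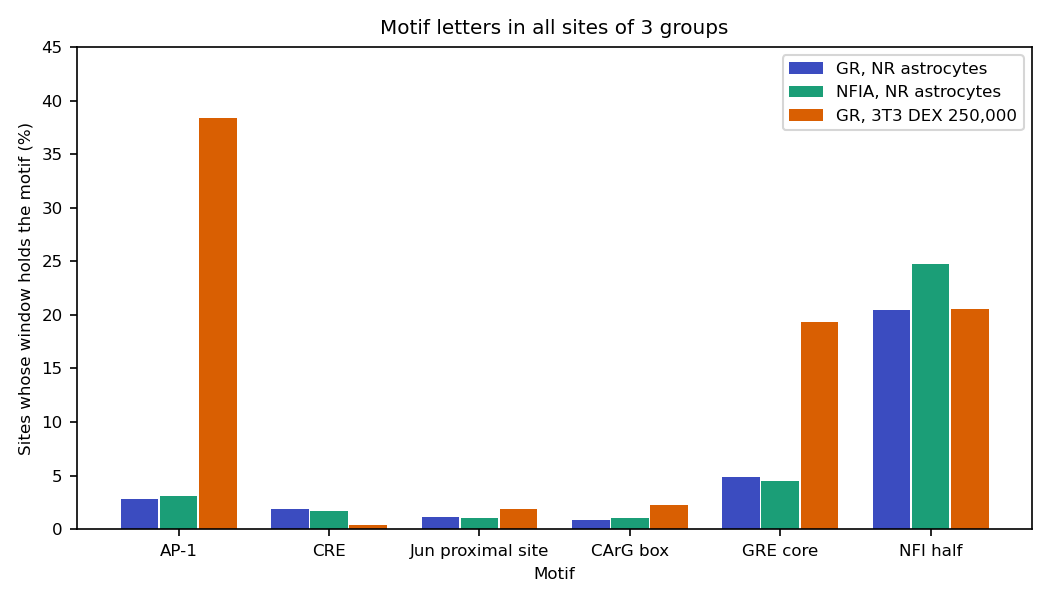
Share of sites (y axis, percent of 201 bp windows at the median summit) that hold each motif (x axis), for all GR and NFIA sites of NR astrocytes and all GR sites of 3T3 cells with DEX at 250000 nuclei. The AP-1 bar of 3T3 cells stands at 38.4%, the bars of NR astrocytes at 2.84% and 3.05%.

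Fos, widely used as a marker of recent neuronal activity, had 4, 0 and 6 GR peaks in NR replicates 1, 2 and 3, none in the DR libraries, and 8, 7 and 7 NFIA peaks in astrocytes. The astrocyte peaks lay at the promoter and at regions 18396 bp upstream and 12235 and 18417 bp past the start, the last called in the 3 NFIA libraries with folds of 6.04 to 11.2. The region 1725 bp upstream (chr12:85472029-85472309) carried the highest folds around Fos in the NFIA astrocyte lists and in NR replicates 1 and 3. In GR-con replicate 2 the region 342 bp upstream stood higher (6.49). NFIA folds there were 18.4, 16.8 and 17.4, between the 92.9th and 95.7th percentile of the lists. GR folds were 13.7 and 19.7 in NR replicates 1 and 3, at the 95.8th and 97.5th percentile, and 4.92 and 6.07 in GR-con replicates 1 and 2, at the 30.5th and 58.0th. GR-KO, DR and the other cells had no peak there.

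The serum response element window 342 bp upstream of Fos was called in 3 NFIA libraries, with folds of 7.97, 6.82 and 9.38, in NR replicate 3 with 8.73 and in GR-con replicate 2 with 6.49. The start itself, where summits lay 18 to 40 bp upstream, was called in 3 NFIA libraries and in NR replicates 1 and 3. No neuronal list had a peak within 500 bp of the Fos start. Excitatory neurons replicates 1 and 3 had GR peaks at the region 18396 bp upstream, with folds of 3.09 and 2.24, and this region, called in 9 libraries, was the most widespread of Fos. It was called in the 3 NFIA astrocyte libraries, NR replicates 1 and 3, GR-con replicate 2 and DEX replicate 1 at 250000 nuclei. NFIA peaks of inhibitory neurons replicates 1 and 3 fell at the region 12235 bp past the start, shown here for its CArG box.
Fos 12235 bp downstream, chr12:85486025-85486225, plus strand: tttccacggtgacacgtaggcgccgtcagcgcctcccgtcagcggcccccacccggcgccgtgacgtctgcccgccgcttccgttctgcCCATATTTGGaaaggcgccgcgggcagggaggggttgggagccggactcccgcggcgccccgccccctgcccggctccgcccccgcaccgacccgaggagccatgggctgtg
This region, which lies in no gene, had NFIA astrocyte folds of 8.66, 9.02 and 8.42 and GR folds of 5.76 and 10.1 in NR replicates 1 and 3.

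**Figure D4:**
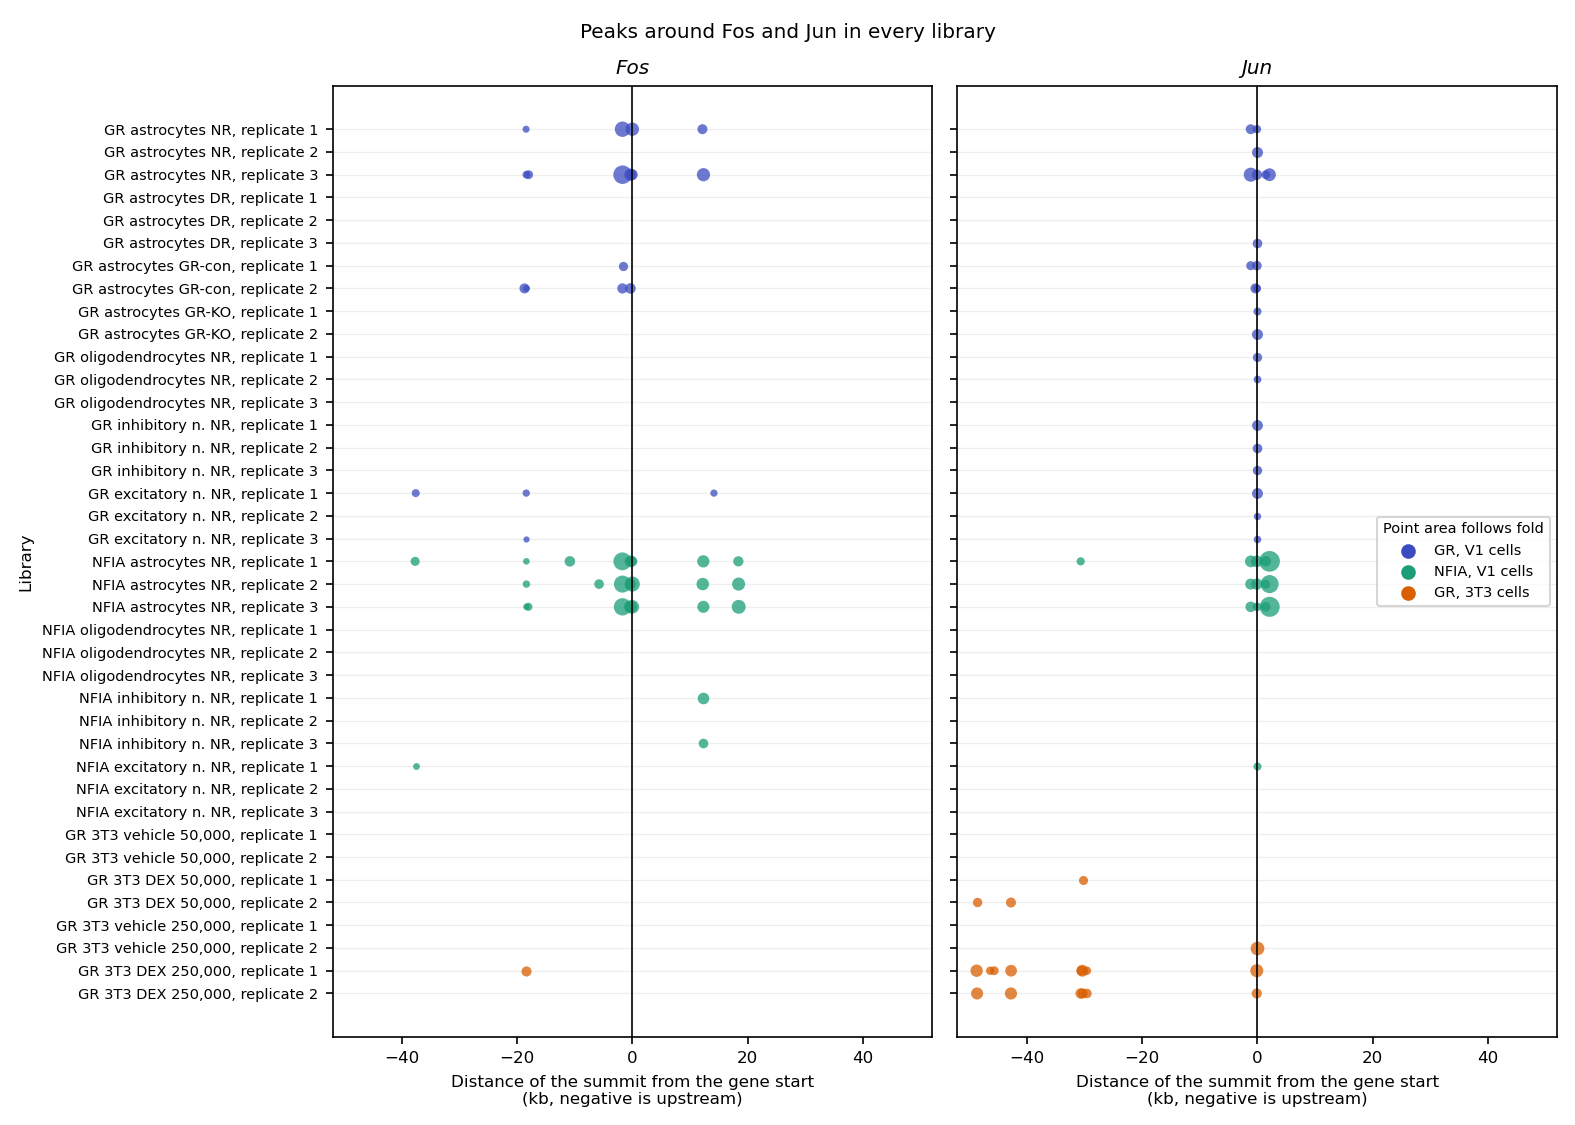
Position of every peak summit within 50 kb of Fos (left) and Jun (right), as distance from the gene start in kb (x axis, negative is upstream) in each library (rows). Point area follows the fold, and colours mark GR in V1 cells (blue), NFIA (green) and GR in 3T3 cells (orange). Blue and orange points line up at the Jun start, and the orange points between 29557 and 48596 bp upstream are in DEX rows.

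Among the other Fos genes, Fosl2 had the fewest peaks in astrocytes. Its start was called in 3 NFIA libraries (folds of 8.90, 9.70 and 7.85), in NR replicates 1 and 3 (7.38 and 4.20) and in GR-con replicate 2 (7.99). Inhibitory neurons replicates 1 and 3 shared a GR peak 46060 bp upstream of Fosl2, with folds of 4.78 and 5.60, which no other list held. In 3T3 cells both DEX libraries at 250000 nuclei had 1 peak near Fosl2, but at different places, 11954 and 1911 bp upstream. Fosb, which makes the long-lived ΔFosB variant, had 3, 0 and 5 GR peaks in NR astrocytes and 5, 8 and 8 NFIA peaks. Its region 330 bp upstream was called in 3 NFIA libraries, NR replicate 1 and inhibitory neurons replicate 1. An exonic region of Fosb, 1369 bp past the start, was called in 7 libraries, at folds of 2.08 to 4.13, and was its most widespread. Fosl1, which encodes FRA-1, had 10, 0 and 10 GR peaks in NR astrocytes and 10, 7 and 12 NFIA peaks, all nearer to other genes. Its most widespread regions, at the start of Efemp2 and near that of Mus81, were called in 8 libraries each.

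Junb, often an antagonist of Jun, had 4, 0 and 8 GR peaks in NR replicates and 7, 9 and 10 NFIA peaks. Its start was called in 6 GR libraries of V1 cells. The folds were 9.64 and 20.5 in NR replicates 1 and 3, at the 84.5th and 97.9th percentile, 4.23 and 3.99 in GR-con, and 2.38 and 2.38 in excitatory neurons replicates 1 and 3. NFIA folds at the Junb start were 19.9, 12.6 and 10.6. The most widespread region near Junb lay 11811 bp upstream, at the start of Hook2, in 10 libraries, with all 3 GR libraries of inhibitory neurons among them. In 3T3 cells, DEX at 250000 nuclei gave 4 and 2 peaks near Junb, while DEX at 50000 nuclei and vehicle gave 0 in every library. Junb had regions 1301 and 2459 bp upstream in 3 NFIA astrocyte libraries each and in no GR library. The region 2060 bp past the start of Junb was called in 2 NFIA libraries and in NR replicate 3.

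Jund, which is expressed steadily rather than induced, had 7, 1 and 11 GR peaks in NR astrocytes and 11, 12 and 10 NFIA peaks. Its start was called in 3 NFIA libraries (5.89, 5.28 and 4.58), in NR replicates 1 and 3 (3.14 and 5.25) and in excitatory neurons replicate 1 (3.47). Regions 1133 and 1746 bp past the start were each called in 3 NFIA astrocyte libraries and in NR replicates 1 and 3, the first also for GR in inhibitory neurons replicate 1. The region called most often within 50 kb of Jund, in 15 libraries, lay 25609 bp upstream at the start of Lsm4, an RNA-processing gene, and it alone gave Jund its peak in NR replicate 2. No 3T3 list had a peak near Fosb or Jund.

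All 7 members had a GR site in NR astrocytes, as did 51.4% of all protein-coding genes, and 5 of 7 had one within 500 bp of the start, against 21.3%. With a peak asked for in all 3 NR libraries, replicate 2 included, 2 of 7 members had a site, against 11.5% of genes. In DR 0 of 7 did, where the share of all genes was 0.338%. In GR-con it was 5 of 7, against 23.8%, and 2 of 7 at the start (Jun and Junb), against 4.77%. In GR-KO it was 1 of 7, Jun, against 0.954%, and at the start 1 of 7, against 0.173%. In oligodendrocytes 1 of 7, Jun, had a GR site, against 0.78% of genes (0.196% at the start). Inhibitory neurons had 3 of 7, Fosl2, Jun and Junb, against 6.36%, of which Jun at the start, against 1.15%. Excitatory neurons had 4 of 7, Fos, Jun, Junb and Jund, against 9.69%, with Jun and Junb at the start, against 2.42%.

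For NFIA, all 7 members had a site in astrocytes, against 66% of genes, and 6 of 7 at the start, against 33.9%. The exception was Fosl1. In the other cells 4 of 7 members had an NFIA site in inhibitory neurons (Fos, Fosl1, Junb and Jund), against 5.08%, and 0 of 7 in oligodendrocytes and excitatory neurons, against 1.4% and 2.09%. In 3T3 cells 0 of 7 had a GR site with vehicle, against 0.799% of genes at 50000 and 1.58% at 250000 nuclei. With DEX it was 1 of 7, Jun, at 50000 nuclei, against 2.57%, and 3 of 7, Fosl2, Jun and Junb, at 250000 nuclei, against 11.3%, with Jun at the start, against 0.539%. The part of gene density around Fosb, Fosl1, Junb and Jund in these counts was not tested.

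**Figure D5:**
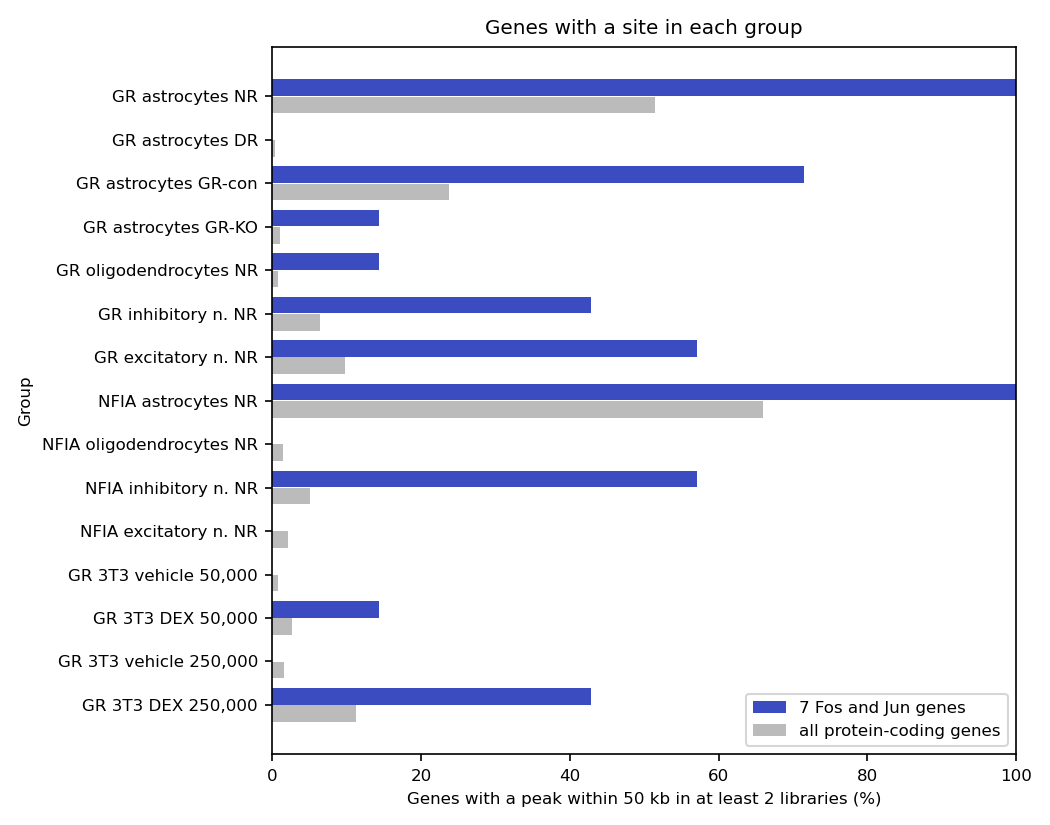
Percentage of the 7 Fos and Jun genes (blue) and of all 21911 protein-coding genes (grey) with a peak within 50 kb of the start in at least 2 libraries of each group (rows). One gene is 14.3% of the blue bar. All 7 genes have a site in NR astrocytes for GR and for NFIA, and 0 of 7 in DR astrocytes.

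Dark rearing was compared with normal rearing through the number of peaks per member, GR in astrocytes. Jund was the only member with more peaks in every NR than in every DR library, 1 of 7 against 10.6% of all genes. Jun had 2, 1 and 4 peaks in NR and 0, 0 and 1 in DR, so the groups touched at 1. The other 5 members had 0 in NR replicate 2 and in all DR libraries. The median difference was 3.33 peaks over the members and 0.667 over all genes. Jund gave p = 0.1 in the two-sided exact permutation test, the smallest value that 3 against 3 libraries allow, and an adjusted p of 0.780 over all genes. Without NR replicate 2, all 7 members had more peaks in every NR library, as did 50.7% of genes.

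GR-con exceeded GR-KO in both libraries for 5 of 7 members, Fos, Fosl1, Jun, Junb and Jund, against 20% of genes. Near Fos the GR-con libraries held 1 and 4 peaks and the GR-KO libraries 0. Fosl1 had 2 and 6, Junb 2 and 1 and Jund 3 and 2, each against 0. Jun had 2 peaks in each GR-con library and 1, at the start, in each GR-KO library. With 2 against 2 libraries the smallest p of the exact permutation test is 0.333, which these 5 members reached. Per 1000 peaks of the library, Jun ran the other way (0.258 and 0.294 for GR-con libraries, 0.542 and 2.42 for GR-KO libraries), and the other 4 remained higher, against 17.4% of genes.

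In the comparison of NR astrocytes with the 9 GR libraries of other V1 cells, 0 of 7 members were higher in every library, against 4.52% of genes, since NR replicate 2 held 1 peak near Jun, 1 near Jund and none near the others. Mean peaks near Jund were 6.33 ± 5.03 (SD, n = 3) in astrocytes and 0.667 ± 1.12 (SD, n = 9) in the other cells, and the exact permutation p of 0.0182 became 0.123 after adjustment. Mean peaks near Jun were 2.33 ± 1.53 (SD, n = 3) and 0.889 ± 0.333 (SD, n = 9), with an adjusted exact permutation p of 0.123. No gene passed the adjusted threshold of 0.05, while 8081 had an unadjusted p under 0.05. Without NR replicate 2, 6 of 7 members, all but Fosl2, were higher in every astrocyte library, as were 37.9% of genes.

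NFIA gave the clearest separation. All 7 members had more peaks in each of the 3 astrocyte libraries than in any of the 9 NFIA libraries of other cells, against 50.3% of all genes. All 7 also passed the adjusted threshold, against 58.7% of genes, each at the smallest p of the design, an exact permutation p of 0.00455, adjusted p = 0.00903. The largest differences of the means were 10.4 peaks for Jund, 9.44 for Fosl1 and 8.22 for Junb. The call for Fosl1 rested on distal peaks, since within 10 kb its difference was 0, with an adjusted exact permutation p of 1. Fos followed with 7.33 ± 0.577 (SD, n = 3) in astrocytes against 0.333 ± 0.500 (SD, n = 9). The smallest was 1 peak for Fosl2, whose NFIA peaks lay at the start in the 3 astrocyte libraries and were absent from the 9 others. Jun had 5, 4 and 4 peaks in astrocytes and 1 peak in 1 of the 9 other libraries. The median difference over members was 7 peaks, and 1.33 over all genes. These differences moved with list length. Per 1000 peaks of the library, 1 of 7 members, Fosl2, remained higher in every astrocyte library, against 26.2% of genes. Fosl2 alone kept an adjusted exact permutation p under 0.05 (0.0173), a count not set against all genes here. Per 1000 peaks, Fos stood at 0.295, 0.275 and 0.313 in astrocytes and at 0.524, 0 and 0.776 in inhibitory neurons, and Jund turned in direction.

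In NR astrocytes, NFIA lists had more peaks than every GR list for 1 of 7 members, Fos (8, 7 and 7 against 4, 0 and 6), against 11% of genes. The exact permutation p was 0.1, the smallest possible, and its adjusted value was 0.910. The mouse line may differ between these NFIA and GR libraries. Without NR replicate 3, 5 of 7 members met this condition, as did 35.2% of genes. Without NFIA replicate 1, 3 did, a count not set against all genes here, which carries no result about the members. Of the 27 GR sites near members in NR astrocytes, 24 overlapped an NFIA site by at least 1 bp, against 95.3% of all GR sites. Of the 47 NFIA sites near members, 24 overlapped a GR site, 51.1% of them, against 50.4% of all NFIA sites.

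Of the 27 NR GR sites near members, 1, at the Jun start, overlapped a DR peak, against 1.8% of all NR sites. GR-con sites covered 6 of the 27, against 29.1%. Peaks of other V1 cells covered 10 of 27, against 15.4%, and peaks of DEX-treated 3T3 cells at 250000 nuclei covered 3, against 3.96%. Of the 6 GR-con sites near members, 1, at the Jun start, overlapped a GR-KO peak, against 30.9% of all GR-con sites. Of the 8 DEX sites near members in 3T3 cells at 250000 nuclei, 1, at the Jun start, overlapped a vehicle peak, against 22.1%, and 1 an NR astrocyte GR peak, against 10.1%.

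The genes whose pattern over the 39 libraries was most like that of a member, counting a peak within 50 kb or none, were Mnt, Ak1 and St6galnac6 for Fos (38 of 39 libraries alike) and Pcif1, Zfp335 and Hist1h1c for Fosb (39 of 39). Fosl1 was most like Gpr146 and C130050O18Rik (38) and Cox19 (37), and Fosl2 was most like Ramp3, Haus8 and Myo9b (38). For Junb they were Agap2 (38), BC030867 and Arvcf (37), and for Jund they were Pabpn1, Slc22a17 and Efs (38). Jun, with a peak in 25 libraries, had the least similar neighbours, Ccl24, Ccl26 and Hip1, at 36 of 39.

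Other genes of the pathway were counted in the same way. Of 14 genes for bZIP partners of AP-1, 10 had a GR site in NR astrocytes and 12 an NFIA site, or 71.4% and 85.7% against 51.4% and 66% of all genes. A GR-con site was present for 3 (21.4%, against 23.8%), and a GR-KO or DR site for 0. Nfe2l2, the regulator of the antioxidant response, had 4, 1 and 3 GR peaks in NR, 0 in each DR library and 4 in each NFIA astrocyte library. Atf7, a partner of Jun, had 2, 0 and 5 GR peaks in NR. Of 19 upstream kinases, phosphatases and regulators, 14 had a GR site and 18 an NFIA site in NR astrocytes (73.7% and 94.7%), and 3 had a GR-con site (15.8%, against 23.8% of all genes). Dusp1, a phosphatase that switches off JNK and p38 and a known glucocorticoid target, had 10 and 10 peaks in DEX libraries at 250000 nuclei, 2 and 5 at 50000, and 0 to 2 in vehicle libraries. It had 0, 0 and 4 GR peaks in NR astrocytes. Dusp6, which acts on ERK, was the only gene of this list higher in every DEX library, 1 of 19 (5.26%, against 1.47% of all genes). It had 2 and 1 peaks at 250000 nuclei and 1 and 1 at 50000 nuclei against 0 with vehicle. Of the bZIP partners 0 of 14 and of the AP-1 targets 0 of 14 were higher in every DEX library. Dusp1 at 50000 nuclei had 2 in DEX replicate 1 and 2 in vehicle replicate 2, so the groups touched. Of 14 known AP-1 targets, 7 had a GR site in NR astrocytes and 11 an NFIA site, so the GR share of 50% was at the background of 51.4% and the NFIA share was 78.6% against 66%. Vim, an intermediate filament gene of astrocytes and fibroblasts, had 5, 4 and 3 NFIA peaks in astrocytes, and Plau, a secreted protease gene, had 5, 1 and 5 GR peaks in NR.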

How the data were processed

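GR and NFIA CUT&RUN was performed by the authors on sorted V1 nuclei and on 3T3 cells, and replicates are those of the labels. The study's methods and the submitters' processing notes name cutadapt for trimming, Bowtie2 with the mm10 genome, Picard for duplicates, SAMtools, deepTools and, for the peaks of single libraries over IgG, MACS2. For every peak the deposited lists give a score, the fold over background as a ratio, and p and q as −log10 values. The fold, its rank and q served within lists. Of 50 samples, 11 without a list were not analysed here. Peak names in the lists of oligodendrocytes, inhibitory and excitatory neurons carry 1 IgG tag for each cell type, shared by GR and NFIA.

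Peaks were assigned by summit to GENCODE M21 gene starts within 50 kb, and genes without a peak were kept at 0. Mean numbers of peaks were compared between libraries for all 21911 genes with two-sided exact permutation tests and Benjamini-Hochberg adjustment. Python 3.11.15, numpy 2.4.6 and pandas 2.3.3 were used. The test had first been run on simulated numbers of peaks in which list length did not differ between libraries. That check therefore does not cover the unlike list lengths of these data. The genome sequence matched the first 50 bases of the annotated transcripts of all 7 members. P-values rest on rearranging the group labels among these libraries, whose differences may be partly technical. At the smallest p of a design they show only that the groups do not overlap, for 3T3 cells within each number of nuclei. The tests of astrocytes against other V1 cells pooled oligodendrocytes, inhibitory and excitatory neurons, and astrocytes also differed from these in how GFP was delivered. All members were named, with the regions within 2000 bp of a start that at least 2 libraries of some group held, the most widespread region of each member, and further regions chosen after their values were seen. The members, gene lists and tests were chosen with earlier results of these data known.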

Additional observations from a re-analysis of the deposited data

How the results depend on the processing

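Members higher in every library were counted again under each alternative. The share of all genes stands beside each count, except for those without single libraries. For NR against DR the count of 1 became 0 within 10 kb (3.85%), 3 within 100 kb (18.6%), 2 within the replicate block (11.3%) and 0 in the top 28 peaks (0%). For GR-con against GR-KO the 5 became 3 within 10 kb (7.64%), 3 at q of at most 0.001 (18.1%), 0 in the top 413 peaks (0.63%) and 4 per 1000 peaks (17.4%), where Jun turned in direction. For GR in astrocytes against other V1 cells the 0 became 1 within the replicate block (8.17%). For NFIA in astrocytes against other V1 cells the 7 became 1 per 1000 peaks (26.2%), where the difference for Jund turned to -0.448, and 0 in the top 1 peak (0%). For DEX against vehicle the 1 became 0 within 10 kb (0.251%), at q of at most 0.001 (1.17%) and in the top 189 peaks (0.128%). For NFIA against GR the 1 became 3 within 10 kb (3.62%), 0 within 100 kb (17.3%), 0 per 1000 peaks (6.53%) and 3 within the replicate block (15.6%). Settings with a share at or near 0% leave nothing to compare. Leaving out single libraries gave 1 to 7, 5 to 6, 0 to 6, 7 to 7, 1 to 1 and 1 to 5 in the same order of comparisons, and without DR replicate 3 the first was 2. These counts without single libraries are not set against all genes here and carry no result about the members. The other 31 alternatives for these counts, the GR-con count of 4 per 1000 peaks among them, stayed within 1.5 times the main count.

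Members with a site fell in GR-con from 5 to 3 within 10 kb (9.16% of genes) and 3 at q of at most 0.001 (21.1%). Within 10 kb they fell from 3 to 1 in GR of inhibitory neurons (1.83%), from 4 to 2 in GR of excitatory neurons (3.7%), from 4 to 1 in NFIA of inhibitory neurons (1.41%), and from 1 to 0 in DEX at 50000 nuclei (0.47%), also 0 at q of at most 0.001 (2.03%). Within 100 kb they rose from 0 to 2 in NFIA of excitatory neurons (3.89%) and from 0 to 1 in vehicle at 250000 nuclei (3.09%). With a peak required in every library, they fell to 2 in NR (11.5%), 0 in oligodendrocytes (0%), 1 in excitatory neurons for GR (0.598%) and 0 in inhibitory neurons for NFIA (0.534%). The other 71 alternatives for sites and all 15 for promoter sites stayed within 1.5 times the main count. The causes of the changes were not tested.

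Whether replicate numbers pair the libraries was not settled. Over genes, deviations of same-numbered libraries correlated between -0.114 and 0.389, and no comparison with 3 or more pairs had every correlation above 0.1. With 2 libraries per group, as for GR-con, GR-KO and 3T3 cells, the correlations mirror each other by construction and cannot show pairing. The block changed no call of an adjusted p in NFIA (0.0294 for each member). Groups of 2 or 3 libraries and lists without read depth limit these results.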
